A study of Mus musculus with 3 samples.

Results

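The genes described here are 7 secreted antagonists of Wnt signalling: Sfrp1, Sfrp2 and Frzb of the secreted Frizzled-related family, Wif1, Dkk1, its divergent relative Dkk3, and Sostdc1. They were chosen by name and matched by Ensembl ID, and all 7 were among the 27040 genes present in the feature sets of all 3 libraries. Single cells of the dorsal midline of the mouse telencephalon had been profiled with 10x Genomics 3′ v3 libraries from C57BL/6J embryos. The Gmnc-/- library came from 4 pooled embryos at E12.5, with no reporter named for them. The wild-type libraries, 2 draws from 1 suspension, pooled 4 PGKCre;Rosa26YFP embryos at E11.5 with 4 Wnt3aCre;Rosa26tdTomato embryos at E12.5. In the first cross a broadly active Cre switches on YFP, and in the second Cre from the Wnt3a locus marks cells of the hem lineage with tdTomato. Gmnc encodes a regulator of the multiciliation programme, and the series title relates that programme to Cajal-Retzius neurons. Because each genotype was 1 suspension, the wild-type libraries were treated as technical repeats and counted as 1 sample, no test was run, and genotype cannot be told apart from stage, transgenes, dissection, sequencing or the 2 feature sets.

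Wnt ligands signal through Frizzled receptors and the co-receptors Lrp5 and Lrp6. Secreted Frizzled-related proteins and Wif1 bind the ligands themselves, Dkk1 and Sostdc1 bind the co-receptors, and Sostdc1 also binds Bmps. Dkk3 shares the Dickkopf fold but is not a clear inhibitor of the canonical pathway. The cortical hem is a strip of neuroepithelium at the edge of the cortical primordium that secretes Wnts and Bmps, lies between the pallium and the choroid plexus, and produces Cajal-Retzius neurons.

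The Gmnc-/- library held 259403297 UMIs and the wild-type libraries 148073906 and 139978761, with a median of 8754.5, 11703 and 12863 UMIs over 12884, 8527 and 7479 used cells. Cells were clustered without the members, without other Wnt pathway genes and without any marker, after scaling within each genotype, and clusters were named from their markers. The hem progenitor-like class had 1567 Gmnc-/- cells and 1306 and 1136 wild-type cells, with 7 of the 8 hem markers detected in each library and Gdf7 at 0. The wild-type libraries shared 1914 of their deposited barcodes, 33 of them among used cells, and leaving these out changed no member's call; the Gmnc-/- library shared 78 and 42 barcodes with them, 29 and 23 among used cells. Gmnc itself was not absent: it was at 45.4 CPM (the counts-per-million scale, on UMIs summed over cells) in the Gmnc-/- library against 29.5 and 30.6 CPM in wild type, so the 3′ tag did not check the label. Of the cells that should lack the members, erythroid cells had 26.9 CPM of Sfrp1 in the Gmnc-/- library against 2.53 and 1.24 CPM in the wild-type libraries. Microglia-like cells had 1.43 CPM of Sfrp1 in the Gmnc-/- library (0.0361 to 7.96, 1 UMI in 63 cells) and none in the wild-type libraries, so these cell types give no single level of free RNA.

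On GRCm38, in the GENCODE vM21 annotation, Sfrp1 spans chr8:23411502-23449632 on the plus strand, Sfrp2 chr3:83766321-83774316 (plus), Frzb chr2:80411970-80447625 (minus) and Dkk1 chr19:30545863-30549665 (minus). Dkk3 spans chr7:112116017-112159057 (minus), Wif1 chr10:121033960-121100650 (plus) and Sostdc1 chr12:36314139-36318452 (plus).

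The sequence before the start of Sfrp2 is shown because this gene was the member with the lower Gmnc-/- level in every class compared. It is the 250 bases upstream of the RefSeq start (GRCm38.p6, chr3:83766071-83766320, plus strand), 63.6% G or C.
Sfrp2: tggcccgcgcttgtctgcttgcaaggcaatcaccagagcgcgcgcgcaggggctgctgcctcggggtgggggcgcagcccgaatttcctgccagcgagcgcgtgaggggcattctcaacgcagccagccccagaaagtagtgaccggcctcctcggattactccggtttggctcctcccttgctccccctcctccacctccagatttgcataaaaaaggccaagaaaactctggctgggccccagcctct
Neither CTTTGAA nor CTTTGAT, the core letters bound by Tcf and Lef factors, was found in it on either strand. RefSeq windows were at hand for 4 of the 7 members, and among these Dkk1 alone held a match, CTTTGAA on its own strand, in capitals in this stretch of 30 bases (GRCm38.p6, chr19:30549596-30549625, minus strand), which lies upstream of the RefSeq start and inside the longer GENCODE gene.
Dkk1: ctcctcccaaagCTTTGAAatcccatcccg
Of 32851 such 250-base windows of the mouse genome, 7.48% held at least 1 of these letters on either strand, so a match in 1 of 4 windows describes these windows and no binding.

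In wild type each member had its own order of levels over the classes. Sfrp1 and Frzb were high in pallial progenitor-like cells outside the hem, at 127 and 16.2 CPM over both wild-type libraries, against 24.6 and 3.12 CPM in hem cells. Wif1 was as high in intermediate progenitor-like cells as in pallial cells, at 63.4 and 63.3 CPM with overlapping intervals, and was at 12.7 CPM in hem cells. Dkk3 marked the hem, with 89.6 CPM there, 24.2 CPM in progenitors of the Six3, Lhx5 or Fezf1-like class and 4.03 CPM in pallial cells. Among the neural classes Sfrp2 was highest in the Six3, Lhx5 or Fezf1-like class, at 79.5 CPM, followed by 44.7 CPM in pallial, 30.8 CPM in hem and 17.5 CPM in choroid plexus-like cells, with no overlap of neighbouring intervals. Sostdc1 was highest in choroid plexus-like cells, with 304 CPM, followed by 204 CPM in mesenchyme-like and 27.0 CPM in Six3, Lhx5 or Fezf1-like cells, and with 7.003 CPM in hem cells. Dkk1 was low in every progenitor class, between 0.813 and 2.13 CPM, and reached 24.7 CPM in neuron-like cells.

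**Figure D1:**
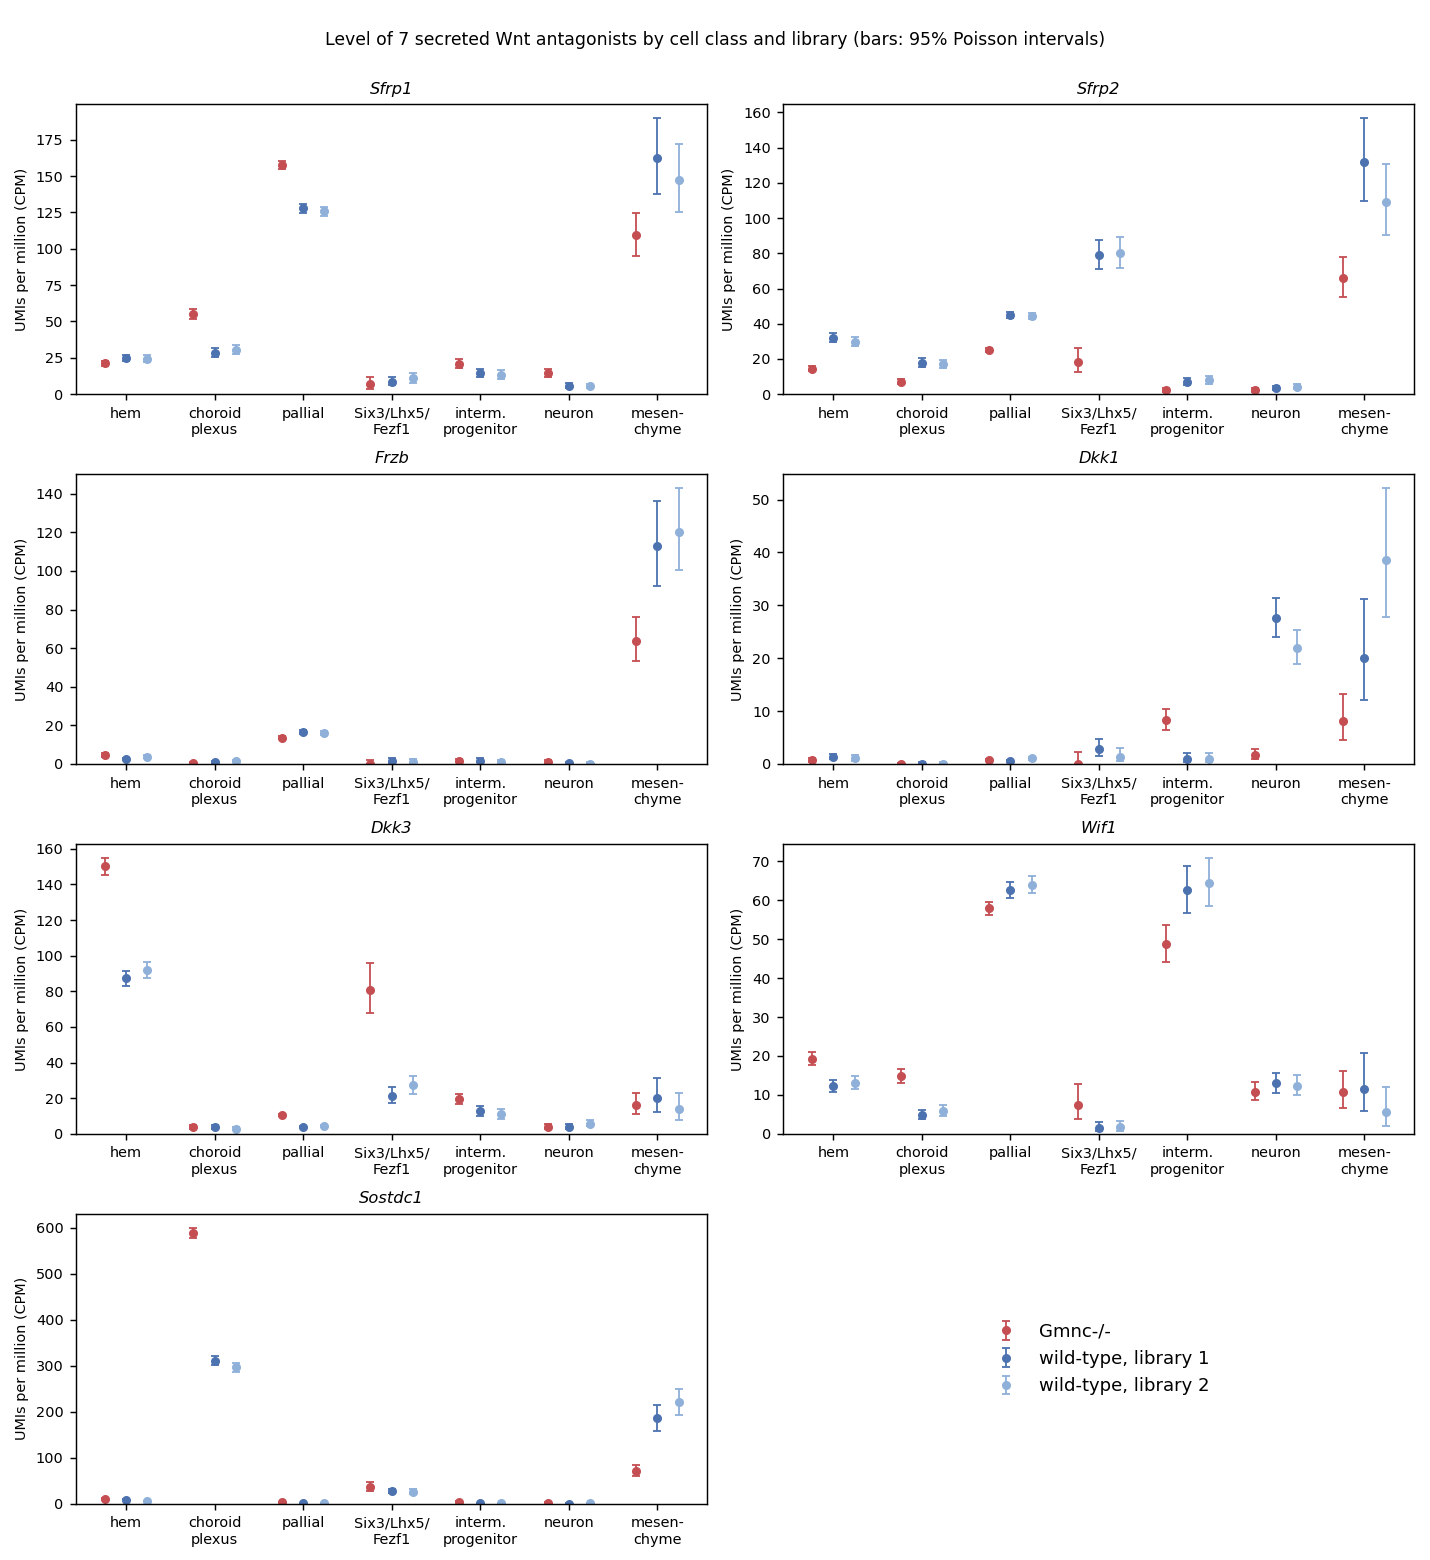
CPM of each member (vertical axis) in 7 cell classes (horizontal axis), with the Gmnc-/- library left of the wild-type libraries and bars for exact 95% Poisson intervals. Dkk3 stands highest in hem cells, Sostdc1 in choroid plexus-like cells and Wif1 in pallial and intermediate progenitor-like cells, while Sfrp2 in Gmnc-/- cells lies below both wild-type libraries in each class.

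Outside the neuroepithelium, the 138 wild-type mesenchyme-like cells, with collagen and meningeal genes, had the highest levels of Sfrp1, Sfrp2 and Frzb of any class, at 154.1, 119.7 and 116.8 CPM. Their Dkk1 level, 29.9 CPM, overlapped that of neurons. Across 22 wild-type clusters Sfrp1 and Frzb had a Pearson correlation of 0.85 and Sfrp1 and Sfrp2 one of 0.82, on log2 CPM, while Sostdc1 and Wif1 had one of -0.50. The genes whose pattern over these clusters was closest to each member, among 8798 genes, were Pycr1 for Sfrp1 (0.90), Prrx1 for Sfrp2 (0.95), Hey2 for Frzb (0.90), Sp8 for Wif1 (0.90), Tfap2b for Dkk1 (0.91), Rspo1 for Dkk3 (0.87) and Slc7a11 for Sostdc1 (0.96). Rspo1 is a hem marker and Tfap2b a transcription factor of Cajal-Retzius neurons. The next in line were Tnfrsf19 and Pelo for Sfrp1, Ephb4 and Mrc2 for Sfrp2, Lama1 for Frzb, Bach2 and Mpped2 for Wif1, Kcnb2 and Mgat4c for Dkk1, Socs2 and Sertm1 for Dkk3, and S1pr3 and Tmem26 for Sostdc1. These correlations describe clusters that share 2 libraries and carry no test.

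For the comparison of genotypes, a gene was called apart when the side with more of it reached 50 UMIs and 20 CPM and the Gmnc-/- level differed at least 2-fold, in the same direction and without overlap of intervals, from each wild-type library. Ratios below are Gmnc-/- over wild-type, with exact 95% intervals that cover counting error only. In hem cells 1 of the 7 members, Sfrp2, was called, in a class where 5.18% of all tested genes were called. In cells of the Six3, Lhx5 or Fezf1-like class 2 members were called, Sfrp2 lower and Dkk3 higher, beside 8.58% of tested genes. In neuron-like cells 1 member, Dkk1, was called lower (11.7% of tested genes) and in mesenchyme-like cells 1, Sostdc1, lower (6.21%), with none called in pallial (4.51%), choroid plexus-like (8.78%) or intermediate progenitor-like cells (6.08%). The minimum was met by 3 members in hem cells, 3 in the Six3, Lhx5 or Fezf1-like class, 1 in neuron-like and 5 in mesenchyme-like cells, so these counts are described beside the shares of all genes and nothing is read from them for the set.

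**Figure D2:**
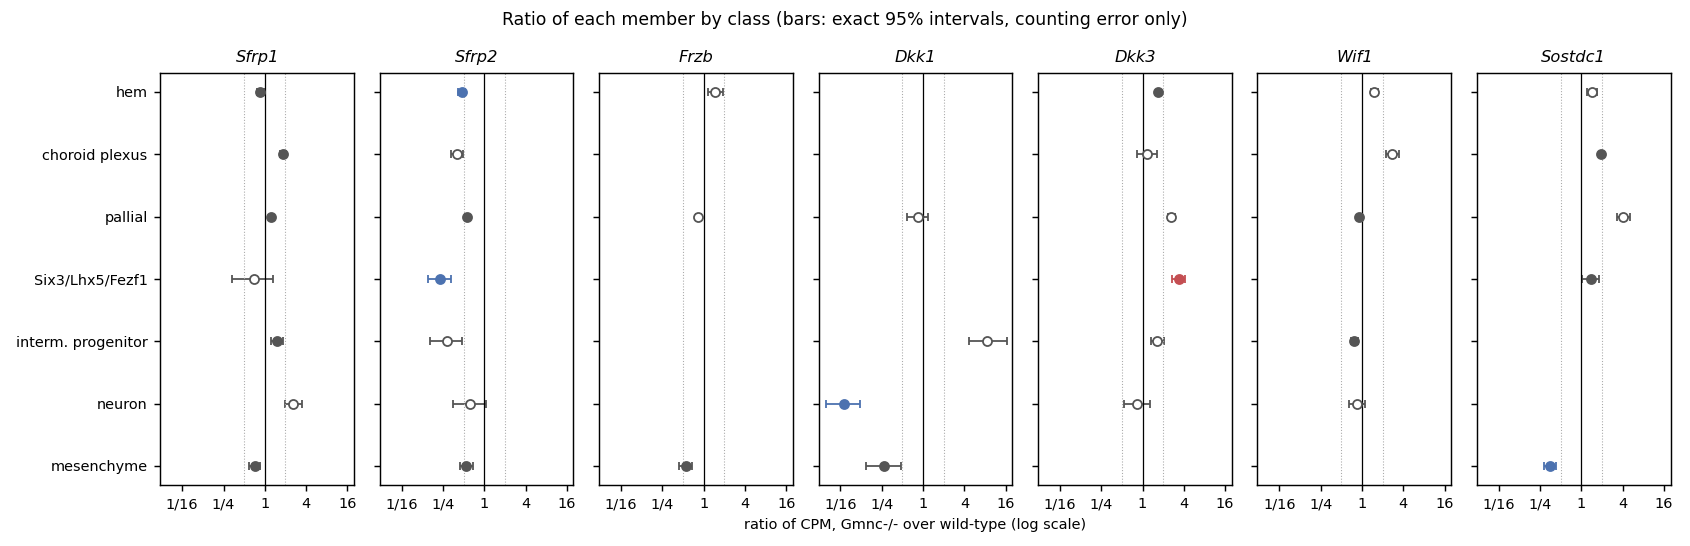
Ratio of CPM, Gmnc-/- over wild-type, on a log2-spaced axis for each member (columns) in each class (rows), with exact 95% intervals; open circles mark members below the minimum of 50 UMIs and 20 CPM, blue ones called lower and red ones called higher, and dotted lines 2-fold. Members under 50 UMIs on both sides are not drawn. Sfrp2 lies left of 1 in all 7 classes, from 0.23 to 0.62, and Dkk3 right of 1 in hem, pallial and Six3, Lhx5 or Fezf1-like cells.

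Sfrp2, which binds Wnt ligands, was lower in Gmnc-/- cells of every class compared. In hem cells it was at 14.5 CPM in the Gmnc-/- library against 31.9 and 29.7 CPM in the wild-type libraries, a ratio of 0.47 (0.42 to 0.53). The Six3, Lhx5 or Fezf1-like class, with 119 Gmnc-/- cells and 553 wild-type cells, had 18.3 CPM in Gmnc-/- and 79.1 and 80.1 CPM in wild type, a ratio of 0.23 (0.15 to 0.33). The Gmnc-/- value lay below both wild-type values and their intervals in each case. Of the wild-type cells of the Six3, Lhx5 or Fezf1-like class, 85.4% held YFP alone, from the E11.5 cross, and 2.89% tdTomato alone. In hem cells these shares were 64.4% and 22.3%. The part of stage or lineage in the Sfrp2 and Dkk3 differences of the Six3, Lhx5 or Fezf1-like class was not tested. The hem call stood close to the 2-fold limit and was lost, at a log2 difference of -0.99, when doublets were kept or a stricter cell filter was used. In hem cluster 2 the Sfrp2 ratio was 0.42 (0.35 to 0.50), which met the call rule. In hem cluster 6 it was 0.53 (0.45 to 0.63), which did not. The share of all genes called was not computed for these clusters.

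In pallial cells Sfrp2 was not called, with 24.96 CPM in Gmnc-/- against 45.0 and 44.5 CPM in wild type and a ratio of 0.56 (0.53 to 0.59). The ratio was below 1, with its interval, in each of the 5 pallial clusters, between 0.48 and 0.71. In pallial cluster 1 Sfrp2 met the call rule, with 19.9 CPM in Gmnc-/- against 40.5 and 41.7 CPM in wild type. The share of all genes called was not computed for that cluster. Choroid plexus-like cells had 7.04 CPM of Sfrp2 in Gmnc-/- and 17.9 and 17.2 CPM in wild type, under the minimum level. In mesenchyme-like cells Sfrp2 was at 65.8 CPM in Gmnc-/- against 132 and 109 CPM in wild type. Only in neuron-like cells, where Sfrp2 was at 2.23 CPM in Gmnc-/- and 3.24 and 3.93 CPM in wild type, did the interval of the ratio include 1 (0.62, 0.34 to 1.07).

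A lower level in all classes was not rare in these libraries: of the 5294 genes with at least 50 UMIs on the higher side in each of the 7 classes, 32.9% were lower in Gmnc-/- in every class and 18.2% higher in every class. The share of hem cells with an Sfrp2 UMI, after thinning each cell to 4000 UMIs, was 5.98% in Gmnc-/- (4.84 to 7.30, exact Clopper-Pearson 95%) against 11.47% and 12.8% in wild type. Without thinning these shares were 19.1% in Gmnc-/- against 34.0% and 36.4% in wild type, at median depths of 10057, 12092 and 13757.5 UMIs. In erythroid cells the thinned share was 2.80% in Gmnc-/- and 0.518% and 0.581% in wild type, at 16417, 15686 and 17531 UMIs, and the intervals of the hem and erythroid shares overlapped in Gmnc-/- (1.04 to 6.00 in erythroid cells). Thinning left out 46 Gmnc-/- and 7 and 12 wild-type hem cells.

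Sfrp1, the other Frizzled-related member abundant in the pallium, differed in direction between classes. Pallial cells had 158 CPM in Gmnc-/- against 128 and 126 CPM in wild type, a ratio of 1.24 (1.21 to 1.27), but the make-up of the class differed, since cluster 5 held 1729 of the 4923 Gmnc-/- and 89 and 92 of the 3248 and 2768 wild-type pallial cells. Within the 5 pallial clusters the ratio ran from 0.84 to 1.20. Hem cells had 21.2 CPM in Gmnc-/- and 24.7 and 24.5 CPM in wild type, a ratio of 0.86 (0.77 to 0.96). The ratio was 0.695 (0.33 to 1.31) in the Six3, Lhx5 or Fezf1-like class. Neuron-like cells had 14.2 CPM in Gmnc-/- against 5.61 and 5.4 CPM in wild type (2.59, 1.945 to 3.45), below the minimum level. Intermediate progenitor-like cells had 20.7 CPM in Gmnc-/- against 14.4 and 13.2 CPM in wild type (1.497, 1.21 to 1.85), not called. In intermediate progenitor-like cluster 19 Sfrp1 met the call rule, with 42.2 CPM in Gmnc-/- against 20.8 and 19.1 CPM in wild type. In clusters 12 and 14 of that class the interval of the ratio included 1. The share of all genes called was not computed for these clusters. The Gmnc-/- level in the hem, Six3, Lhx5 or Fezf1-like, intermediate progenitor-like and neuron-like classes as wholes did not exceed the 26.9 CPM of Gmnc-/- erythroid cells. The level in cluster 19 did. Gmnc-/- microglia-like cells had 1.43 CPM, and the part of free RNA in these classes and clusters was not tested. A class of 587 cells led by Fgf8, Fgf17 and Fgf15, present only in the Gmnc-/- library, had 267 CPM of Sfrp1 (254 to 280), the highest level of this gene in any class, with 77.4 CPM of Sostdc1 and 29.3 CPM of Wif1.

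Frzb was measurable in pallial cells, with 13.5 CPM in Gmnc-/- against 16.50 and 15.99 CPM in wild type, below the minimum level. Its ratio there was 0.83 (0.77 to 0.90). Wif1, which binds Wnts through its own Wif domain, was near its wild-type level where it was highest: 57.9 CPM in Gmnc-/- pallial cells against 62.6 and 64.0 CPM in wild type, and 48.7 CPM in Gmnc-/- intermediate progenitor-like cells against 62.5 and 64.4 CPM in wild type. The ratios were 0.92 (0.88 to 0.95) and 0.77 (0.68 to 0.86), and within the 5 pallial clusters the ratio ran from 0.62 to 1.05. Among intermediate progenitor-like cells, cluster 12 held 671 of the 1187 Gmnc-/- and 152 and 124 of the 604 and 533 wild-type cells, and within it Wif1 was at 31.8 CPM in Gmnc-/- against 20.9 and 21.9 CPM in wild type, a ratio of 1.48 (1.08 to 2.06). Wif1 was higher in Gmnc-/- at low levels in 2 classes, with 19.3 CPM in hem cells against 12.3 and 13.2 CPM in wild type and 14.9 CPM in choroid plexus-like cells against 4.84 and 5.95 CPM in wild type. Both class values were under the minimum of 20 CPM. In hem cluster 2 Wif1 was at 21.7 CPM in Gmnc-/- against 10.9 and 11.7 CPM in wild type (1.92, 1.61 to 2.29), not called. In hem cluster 6 its ratio was 1.16 (0.96 to 1.41). In neuron-like cells Wif1 was at 10.8 CPM in Gmnc-/- against 12.96 and 12.4 CPM in wild type (0.85, 0.65 to 1.10). Gmnc-/- erythroid cells had 7.73 CPM of Wif1 against 0.948 and 0.311 CPM in wild type. The part of free RNA in these Wif1 differences was not tested.

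Dkk3, the divergent Dickkopf member, was higher in the Gmnc-/- hem without being called. Hem cells had 150.2 CPM in Gmnc-/- against 87.3 and 91.9 CPM in wild type, a ratio of 1.68 (1.60 to 1.76), which is under 2-fold and was not called. The thinned share of hem cells with a Dkk3 UMI was 40.7% in Gmnc-/- against 28.9% and 28.6% in wild type. Of erythroid cells, 1.40% in Gmnc-/- had a UMI, and 0 of 193 and 0 of 172 in wild type, which allows shares of up to 1.55% and 1.74% by a count of 3.

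The largest ratio for Dkk3 in a class above the minimum was in the Six3, Lhx5 or Fezf1-like class, with 81.0 CPM in Gmnc-/- against 21.4 and 27.2 CPM in wild type, a ratio of 3.35 (2.68 to 4.17). The Dkk3 call was lost after thinning to 4000 UMIs, while the log2 difference of 1.69 stayed between 1.34 and 2.35 in 14 settings. The class as a whole thus had less Sfrp2 and more Dkk3 in Gmnc-/- than in either wild-type library. Whether single cells carried both differences was not tested. Summed over the class's 5 own markers, of which Six6 was at 0 in all 3 libraries, the level was 600 CPM in Gmnc-/- and 453 and 446 CPM in wild type, and over the 8 hem markers it was 1008 CPM in Gmnc-/- against 1211 and 1221 CPM in wild type. Pallial cells had 10.5 CPM of Dkk3 in Gmnc-/- and 3.75 and 4.31 CPM in wild type, below the minimum level. Its ratio was 1.12 (0.86 to 1.49) in pallial cluster 5 and between 2.02 and 3.54 in the other pallial clusters. In choroid plexus-like cells Dkk3 was low in every library, with 3.83 CPM in Gmnc-/- against 3.59 and 2.97 CPM in wild type.

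Between hem and choroid plexus the members changed place. Cluster 4, which took no name and was led by Mecom, Epcam and Msx2 with Bmp4 and Rspo2, lay between them in level for both Dkk3 and Sostdc1. Dkk3 was at 49.1 CPM there in Gmnc-/- against 25.2 and 27.9 CPM in wild type. Sostdc1 was at 57.3 CPM in Gmnc-/- against 62.7 and 54.0 CPM in wild type, a ratio of 0.98 (0.86 to 1.11), so the Gmnc-/- value stood between the wild-type ones. In cluster 4, where 5.48% of tested genes were called, Sfrp2 was the 1 member called, with 16.6 CPM in Gmnc-/- against 35.0 and 35.5 CPM in wild type.

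**Figure D3:**
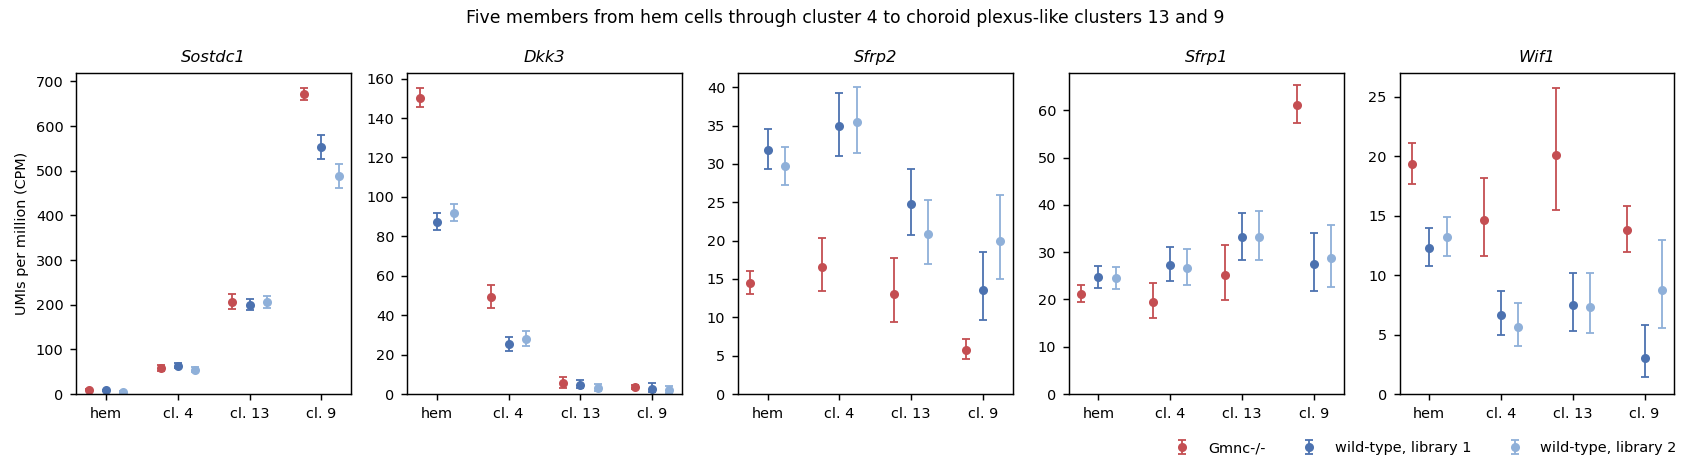
CPM (vertical axis, from 0 in each panel) of 5 members in hem cells, cluster 4 and choroid plexus-like clusters 13 and 9, with Gmnc-/- left of the wild-type libraries and bars for 95% Poisson intervals. In each library Dkk3 is highest in hem cells and Sostdc1 in cluster 9, while Sfrp1 in cluster 9 is at 61.3 CPM in Gmnc-/- and under 30 CPM in wild type.

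Sostdc1, the Bmp-binding member, was at 589 CPM in Gmnc-/- choroid plexus-like cells against 311 and 297 CPM in wild type, a ratio of 1.94 (1.88 to 1.99). The genotypes filled this class with different clusters. Cluster 9, led by Ttr, Htr2c and Slc4a5, held 958 of the 1206 Gmnc-/- and 201 and 164 of the 899 and 809 wild-type cells, whereas the cilia-rich cluster 15 held 2 Gmnc-/- and 379 and 357 wild-type cells. Within cluster 9 Sostdc1 was at 671 CPM in Gmnc-/- against 553 and 487 CPM in wild type, a ratio of 1.29 (1.24 to 1.34), and within cluster 13, led by Msx1 and Clic6, at 207 CPM in Gmnc-/- against 200.2 and 205.5 CPM in wild type (1.02, 0.93 to 1.11). Cluster 15 had 285 and 280.3 CPM of Sostdc1 in wild type. The summed level of the 10 choroid plexus markers moved with the class value, at 45290 CPM in Gmnc-/- against 19490 and 21190 CPM in wild type.

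Sfrp1 was also higher in this class without being called, at 54.9 CPM in the Gmnc-/- class against 28.6 and 30.4 CPM in wild type. In cluster 9, where 6.09% of tested genes were called, it was called higher, with 61.3 CPM in Gmnc-/- against 27.4 and 28.7 CPM in wild type and a ratio of 2.18 (1.85 to 2.60). In cluster 13, where 5.33% of tested genes were called, Sfrp1 was at 25.2 CPM in Gmnc-/- and 33.2 and 33.3 CPM in wild type, and Wif1 was the member called higher, with 20.1 CPM in Gmnc-/- against 7.45 and 7.35 CPM in wild type. The Sfrp1 level of Gmnc-/- cluster 9 was above the 26.9 CPM of Gmnc-/- erythroid cells and that of cluster 13 was not. Wild-type erythroid cells had 2.53 and 1.24 CPM, and the part of free RNA in the Sfrp1 differences of this class and its clusters was not tested.

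Dkk1, the co-receptor antagonist, had its neural signal in neurons. Neuron-like cells had 1.73 CPM in Gmnc-/- against 27.6 and 22.0 CPM in wild type, a level 14.3-fold lower in Gmnc-/- (8.40 to 26.3). The wild-type signal came from cluster 8, led by Lhx1, Trp73 and Tfap2b with Cajal-Retzius markers, which held 13 of the 817 Gmnc-/- neuron-like cells and 685 of the 921 of the first wild-type library. There Dkk1 had 0 UMIs in Gmnc-/-, which allows up to 40.5 CPM by a count of 3, against 40.2 and 31.0 CPM in wild type. In the other neuron-like cluster, 10, Dkk1 was at 1.75 CPM in Gmnc-/- against 0.392 and 1.97 CPM in wild type (1.48, 0.54 to 4.71). The log2 difference of the class, -3.24, was -1.44 at Leiden resolution 0.5 and also with the stricter cell filter. The 8 Cajal-Retzius markers summed to 1757 CPM in Gmnc-/- neuron-like cells, with Trp73 at 0, against 2996 and 2939 CPM in wild type.

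In Gmnc-/- 66 of the 191 Dkk1 UMIs of all cells lay in cluster 12, intermediate progenitor-like cells with Gmnc among their leading genes, where Dkk1 was at 15.2 CPM against 0.698 and 1.63 CPM in wild type, from 66 UMIs in 671 Gmnc-/- cells and 3 UMIs in the wild-type cells. This is below the minimum of 20 CPM. In the whole intermediate progenitor-like class the log2 difference of Dkk1 was 2.23 and ran from -0.57 to 2.43 over 17 settings, below 0 in 3 of them. This cluster had 401.8 CPM of Gmnc in Gmnc-/- against 145 and 138 CPM in wild type, and its Cajal-Retzius markers summed to 1082 CPM in Gmnc-/- against 729.1 and 771.5 CPM in wild type. Over intermediate progenitor-like and neuron-like cells together, a grouping made after these values were seen, Dkk1 was at 5.17 CPM in Gmnc-/- against 15.4 and 12.6 CPM in wild type, a ratio of 0.37 (0.29 to 0.46). That is under the minimum of 20 CPM, and none of the 7 members was called in the joint group, where 7.38% of tested genes were.

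**Figure D4:**
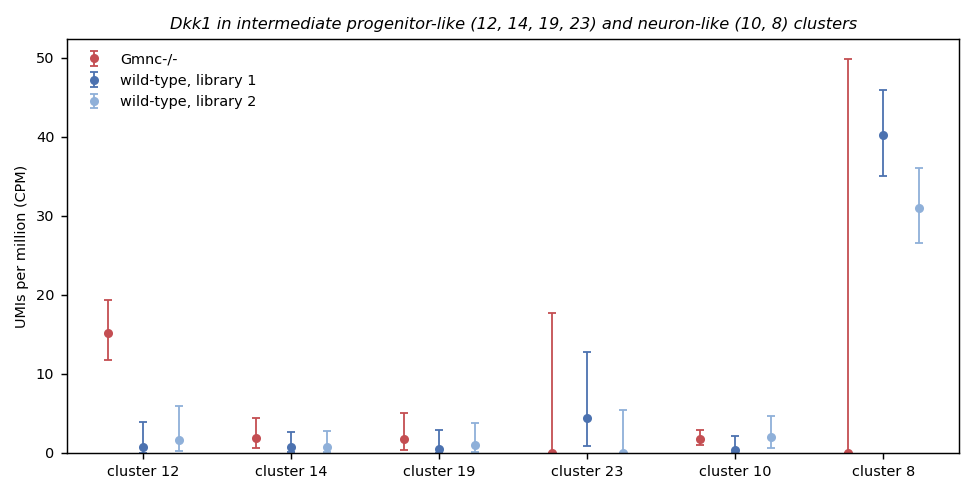
CPM of Dkk1 (vertical axis) in 4 intermediate progenitor-like and 2 neuron-like clusters, with Gmnc-/- left of the wild-type libraries and 95% Poisson intervals. Dkk1 stands out in cluster 8 of wild type and cluster 12 of Gmnc-/-; the wide Gmnc-/- intervals in clusters 8 and 23 come from 13 and 18 cells.

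In mesenchyme-like cells 5 members had ratios and intervals below 1. Sostdc1 was called, at 70.8 CPM in Gmnc-/- against 185 and 221 CPM in wild type and a ratio of 0.35 (0.28 to 0.42). Frzb was at 63.8 CPM in Gmnc-/- against 113 and 120.4 CPM in wild type, a ratio of 0.55 (0.44 to 0.68), Sfrp1 at 109 CPM in Gmnc-/- against 162 and 147 CPM in wild type, and Dkk1 at 8.10 CPM in Gmnc-/- against 20.01 and 38.6 CPM in wild type. The class was small and mixed: its 176 Gmnc-/- cells had 348 CPM summed over 5 endothelial markers, against 34.8 and 34.9 CPM in the 70 and 68 wild-type cells, where Cldn5 and Emcn were at 0. The 9 mesenchyme markers summed to 6279 CPM in Gmnc-/- against 8230 and 7914 CPM in wild type, and the part of this make-up in the members' levels was not tested.

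Wild-type cells with 1 reporter allowed a comparison of the 2 crosses, tdTomato marking hem-lineage cells of E12.5 embryos and YFP cells of E11.5 embryos. Stage, lineage and transgenes cannot be told apart in it. A reporter UMI need not come from the cell itself: 2.74% of wild-type erythroid cells held tdTomato alone. Another 52.9% held YFP alone, and how many of these carried the reporter themselves was not tested. Hem cells with tdTomato alone numbered 545 and those with YFP alone 1572. Sfrp2 was at 29.3 CPM in tdTomato and 30.9 CPM in YFP hem cells, a ratio of 0.95 (0.82 to 1.09). The part of stage in the genotype ratio was not tested. Set against tdTomato cells only, Sfrp2 in Gmnc-/- hem cells had a ratio of 0.49 (0.42 to 0.58).

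Dkk3 was at 106 CPM in tdTomato hem cells and 84.4 CPM in YFP hem cells, a ratio of 1.25 (1.16 to 1.35), in the direction of the Gmnc-/- library. Its ratio in Gmnc-/- over tdTomato hem cells was 1.42 (1.32 to 1.52). In cluster 4 Dkk3 was at 44.8 CPM in tdTomato cells against 23.8 CPM in YFP cells, and Gmnc-/- over tdTomato gave 1.10 (0.86 to 1.41), an interval that includes 1. Sostdc1 in choroid plexus-like cells was at 261 CPM in tdTomato cells against 315 CPM in YFP cells (0.83, 0.77 to 0.89), opposite to the class value of the Gmnc-/- library, and Gmnc-/- over tdTomato gave 2.25 (2.11 to 2.41). Wif1 was higher in tdTomato than in YFP cells of the hem (1.44, 1.18 to 1.76) and choroid plexus-like class (1.83, 1.18 to 2.79), and its ratio in Gmnc-/- over tdTomato hem cells was 1.16 (0.97 to 1.40), an interval that includes 1. Dkk1 in neuron-like cells was at 22.9 CPM in tdTomato cells and 24.5 CPM in YFP cells. None of the 7 members was called between reporters in hem cells (0.031% of tested genes called), cluster 4 (0.2%), choroid plexus-like (0.0745%), pallial (0.0668%), intermediate progenitor-like (0.621%) or neuron-like cells (0.191%).

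**Figure D5:**
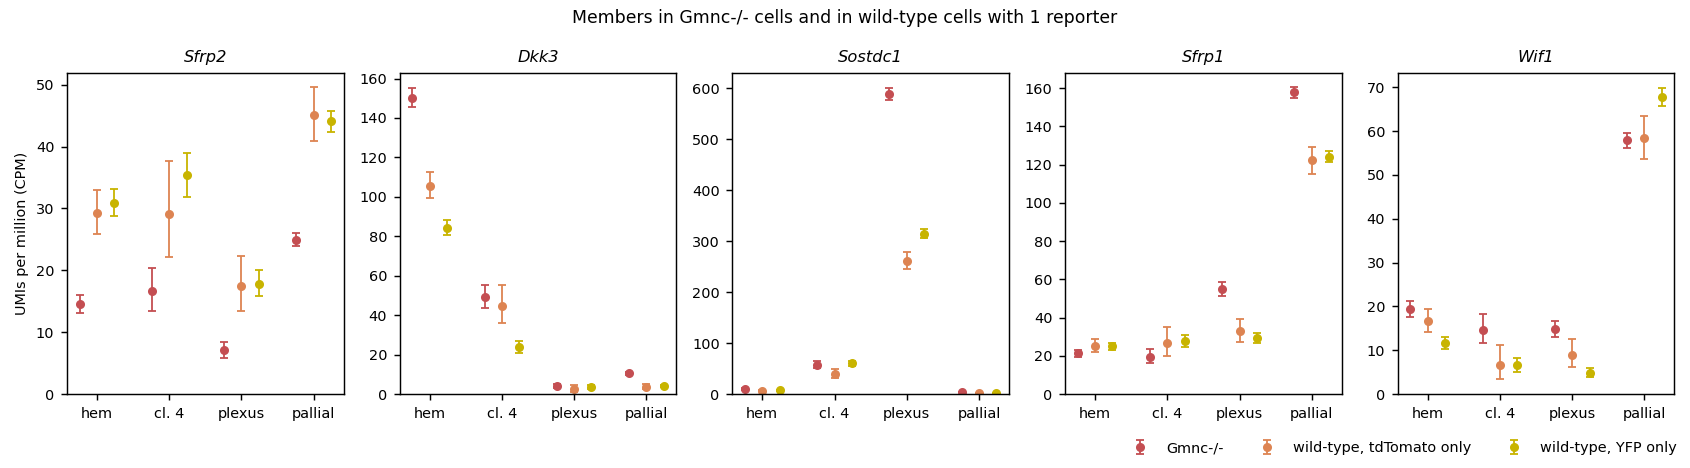
CPM (vertical axis, from 0) of 5 members in Gmnc-/- cells, wild-type cells with tdTomato only and wild-type cells with YFP only, left to right in each class, with 95% Poisson intervals. Sfrp2 is lower in Gmnc-/- than in either reporter set in all 4 classes shown, and Dkk3 in cluster 4 is about as high in tdTomato cells as in Gmnc-/- cells.

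Other genes of the pathway were read from lists chosen with earlier results of these data known. Among 10 other secreted antagonists, 2 met the minimum in hem cells and 1 in choroid plexus-like cells. None was called, in classes where 5.18% and 8.78% of all tested genes were. Igfbp4, an Igf-binding protein that also binds Frizzled and Lrp6, was at 53.2 CPM in Gmnc-/- hem cells against 81.7 and 83.4 CPM in wild type (0.64, 0.60 to 0.69). Draxin, a guidance protein that binds Lrp6, was at 46.2 CPM in Gmnc-/- hem cells against 24.4 and 27.6 CPM in wild type (1.78, 1.63 to 1.94). In intermediate progenitor-like cells, where 6.08% of tested genes were called, 2 met the minimum, and Draxin was called higher and Igfbp4 lower.

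Of 19 Wnt ligands none was called in the hem class as a whole, where 7 were above the minimum and 5.18% of all tested genes were called. In hem cluster 2 alone Wnt5a was called higher, and in hem cluster 6 no ligand was called. The share of all genes called was not computed for these clusters. Wnt8b was at 1076 CPM in Gmnc-/- hem cells against 875.5 and 903.9 CPM in wild type, and Wnt3a, a hem ligand, at 57.5 CPM against 91.5 and 95.8 CPM in wild type (0.61, 0.58 to 0.65). Wnt5a was called higher in choroid plexus-like cells, with 42.7 CPM in Gmnc-/- against 19.98 and 21.2 CPM in wild type. Within its clusters Wnt5a was not called, with ratios of 1.31 (1.11 to 1.55) in cluster 9 and 2.06 (1.62 to 2.61) in cluster 13. In neuron-like cells, where 11.7% of tested genes were called, 3 of the 4 ligands above the minimum were called lower, Wnt7b, Wnt10a and Wnt8b. Wnt7b was at 55.7 CPM in Gmnc-/- against 272 and 259.9 CPM in wild type. The genotypes filled this class with different clusters, and in cluster 10, where 6.14% of tested genes were called, Wnt7b was called lower and Wnt10a, at a ratio of 0.48 (0.40 to 0.57), was not. Wnt5a was called higher in cluster 10 (3.63, 2.90 to 4.58). Wnt8b was turned round there, with 45.0 CPM in Gmnc-/- against 19.6 and 24.04 CPM in wild type (2.06, 1.66 to 2.58), and was not called.

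Of 12 targets and feedback genes, Axin2, a direct target and inhibitor, was at 283 CPM in Gmnc-/- hem cells against 183 and 189 CPM in wild type (1.52, 1.47 to 1.57). In cluster 4 Axin2 was at 333 CPM in Gmnc-/- against 174 and 177 CPM in wild type (1.90, 1.79 to 2.01). Lef1, a transcription factor and target of the pathway, was called higher in choroid plexus-like cells, at 114 CPM in Gmnc-/- against 50.4 and 50.4 CPM in wild type. Within its clusters Lef1 was not called, with 120.1 CPM in Gmnc-/- against 59.9 and 64.6 CPM in wild type in cluster 9 and 85.3 CPM in Gmnc-/- against 53.8 and 48.6 CPM in wild type in cluster 13. Sp5, another target, was at 177 CPM in Gmnc-/- hem cells against 174 and 179.8 CPM in wild type (1.001, 0.96 to 1.04). In hem cells 1 of the 8 targets above the minimum, Apcdd1, was called. In neuron-like cells, where 11.7% of tested genes were called, 2 of the 5 targets above the minimum were called lower and 0 higher. Sp5 was at 7.80 CPM there in Gmnc-/- against 35.8 and 36.9 CPM in wild type, and Nkd1 at 68.7 CPM against 201 and 211 CPM. In neuron-like cluster 10, where 6.14% of tested genes were called, Nkd1 had a ratio of 1.02 (0.89 to 1.17). Wls was the 1 target called in that cluster, and it was higher.

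Apcdd1, a membrane-bound Wnt inhibitor, and Fzd3, a receptor, differed alike in most classes. Apcdd1 was at 219 CPM in Gmnc-/- hem cells against 9.03 and 8.70 CPM in wild type and at 56.0 CPM in Gmnc-/- pallial cells against 2.04 and 2.03 CPM in wild type. Fzd3 was called higher in each of the 7 classes, by 4.04-fold in choroid plexus-like cells to 6.60-fold in Six3, Lhx5 or Fezf1-like cells, mesenchyme included. The feature sets of the libraries differed, with 32285 features in Gmnc-/- and 28001 in wild type, and the part of this difference in the values of these genes or of the members was not tested.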

How the data were processed

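The deposited matrices hold UMI counts per gene and cell barcode, made with Cell Ranger: 6.0.0 for Gmnc-/- and 3.1.0 for wild type per the file headers, while the submitters' processing notes name 3.1.0 and mm10. The sources used here do not name an annotation release, and no deposited barcode had under 500 UMIs. Barcodes with at least 1000 genes, at least 2000 UMIs and at most 10% mitochondrial UMIs were kept. A doublet score from 2 simulated doublets per cell removed 0.8% per 1000 cells, 16.2% of Gmnc-/- and 9.94% and 8.32% of wild-type cells. The 27040 genes shared by Ensembl ID were used; 1227 had another symbol. Clustering (2000 variable genes, without the members, other Wnt pathway genes and the markers; 40 components, 20 neighbours, Leiden resolution 1, values scaled within each genotype) gave clusters, named where the mean log2 difference of a marker list was at least 1 with at least 3 markers 2-fold up. Counts were summed per class and library. Intervals (95%) are exact and cover counting error only. No test was run, since each genotype was 1 suspension.

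The members, gene lists and markers were chosen with earlier results of these data known. Beside the members, the text names genes above 20 CPM in each pathway list with the largest called differences or the highest wild-type levels, a few named after their values were seen (Igfbp4, Draxin, Axin2, Sp5, Wnt3a and Lef1), and the 3 genes most alike to each member, of which 1 is not reported here. The call rule was tested on simulated data. Alternatives were other scalings, minimums, cell filters, resolutions, thinning and left-out libraries. Software was Python 3.11.15, numpy 2.4.6, pandas 2.3.3, scipy 1.17.1, scikit-learn 1.9.0, igraph 0.11.9, leidenalg 0.10.2 and matplotlib 3.10.9. Sequences are from RefSeq, GRCm38.p6.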

Additional observations from a re-analysis of the deposited data

Results flagged for a closer look

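Sfrp1 and Sostdc1 moved in opposite directions in choroid plexus-like and mesenchyme-like cells, with each Gmnc-/- value above both wild-type libraries in the first class and below both in the second. The ratios of Sfrp1 were 1.86 and 0.71, a log2 difference of 1.37 between the classes, and those of Sostdc1 were 1.94 and 0.35, a log2 difference of 2.46. The difference between classes was not tested. In choroid plexus-like cluster 13 the ratios were 0.76 for Sfrp1 and 1.02 for Sostdc1, and in cluster 9 they were 2.18 and 1.29. In mesenchyme-like cells 5 endothelial markers summed to 348 CPM in Gmnc-/- against 34.8 and 34.9 CPM in wild type, and the part of this make-up was not tested.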

How the results depend on the processing

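No paired analysis was possible because each genotype was 1 suspension and the libraries share no pairing. Of 114 counts recomputed under the alternatives, 96 stayed within 1.5 times and 18 moved. Most were counts of members called, and a few were counts of members that kept the same class of highest wild-type level. A count of 0 against 0, or of other members in the same number, passed as unchanged. The share that stayed therefore does not measure how stable the calls were. The number of members called in hem cells was 0 with doublets kept or with a stricter cell filter and 2 at Leiden resolution 0.5, where Dkk3 was called higher. In neuron-like cells it was 2 with doublets kept, 2 with no minimum, and 0 with the stricter filter, at resolution 0.5, against tdTomato cells and with clusters weighted equally, an alternative added after the data were seen. Against tdTomato cells the ratio of Dkk1 was 0.076 and their 48 UMIs fell under the minimum; equal weighting left cluster 10 alone, where the log2 difference of Dkk1 was 0.33. In mesenchyme-like cells it was 2 with doublets kept and 1 to 2 when a wild-type library was left out (2 without the second). In the Six3, Lhx5 or Fezf1-like class it was 1, Sfrp2, after thinning, where Dkk3 had a log2 difference of 2.35 without being called, and that class was not formed at resolution 0.5. In choroid plexus-like cells it was 1 at resolution 0.5, 1 against tdTomato cells and 2 with no minimum, in pallial cells 2 with no minimum, and in intermediate progenitor-like cells 1 at resolution 0.5 and 3 with no minimum. The log2 difference of Sfrp2 in hem cells was -1.04 and stayed between -1.25 and -0.88 in 17 settings. TMM scaling moved the median of all tested genes in the Six3, Lhx5 or Fezf1-like class to -0.20, against -0.05 before, and in neuron-like cells to -0.02, against -0.14. The tdTomato comparison was not run for the mesenchyme-like and Six3, Lhx5 or Fezf1-like classes, with under 50 cells. The cause of the other changes was not tested. The share of all genes called was not computed under the alternatives, so nothing is read from these counts for the set.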
